A study of Xenopus tropicalis with 16 samples.

Results

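The 87 genes described here rise between gastrula and neurula in control ectoderm of the frog Xenopus tropicalis. They were still below control in mean level at the tailbud stage after knockdown of the SUV4-20H enzymes. They are 87 of 14373 genes counted, of which 11997 had at least 1 read in at least 12 of the 16 libraries and were examined. RNA was sequenced from animal caps, the prospective ectoderm cut from the top of a blastula. Knockdown caps came from embryos that received Suv4-20H1/2 morpholino, and control caps from embryos that received control morpholino (CoMo). Stages follow Nieuwkoop and Faber: NF10 (gastrula, 3 knockdown and 3 control libraries), NF16 (neurula, 2 and 2) and NF24 (tailbud, 3 and 3). Both arms carry an injected morpholino, and no uninjected explants enter the comparison.

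Left alone in culture, an animal cap forms embryonic epidermis, in which multiciliated cells, ionocytes and secretory cells are added to the covering layer. SUV4-20H1 and SUV4-20H2 add methyl groups to lysine 20 of histone H4 and turn the monomethyl mark into the di- and trimethyl marks. A morpholino is an antisense oligomer, and those against the enzymes were designed to block translation, so the transcript need not fall. The RNA came from whole explants holding all cell types of the cap, and per the study the tailbud knockdown caps fell apart into single cells. The study also reports that the profiles of these tailbud replicates grouped unevenly in a principal component analysis. Differential genes were hard to assess there, and its further work focused on neurula caps. The files identify genes by model numbers of genome version 9, and 0 of the 14373 matched the symbol table used here. The targeted transcripts, the markers of the epidermal cell types and the functions of the 87 genes were therefore not analysed here.

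The genes were chosen by their levels. The level is given in CPM, a gene's share of the assigned fragments of a library after scaling between libraries with TMM factors, and 1 was added to every group mean. The control NF16 mean had to exceed the control NF10 mean by at least 2 on the log2 scale, and the control NF24 mean had to lie within 1 log2 unit of the NF16 mean. This gave 1169 genes, called neurula-onset genes below. Of these, 720 were low at NF16, with a log2 ratio of knockdown over control of -1 or less, and are called late. Among the late genes, 87 (12.1%) had an NF24 knockdown mean of at most 0.6 of the control mean (background 3.31% of all genes). The knockdown differences at NF16 and NF24 thus chose the genes and are given as a description, without a test of the 87 as a set. At the NF24 limit, the nearest genes inside had ratios of 0.599 and 0.599 and the nearest outside 0.602 and 0.605. At the NF16 limit the nearest inside had log2 ratios of -1.02 and -1.08, and the nearest outside -0.99 and -0.83. The control rise was 2.14 and 2.22 log2 units just inside its limit and 1.95 and 1.94 just outside, and the control NF16 to NF24 change was 0.97 and 0.96 in size just inside and 1.01 and 1.02 just outside. The NF24 limit cut through a continuum. Among the late genes 81 had ratios between 0.4 and 0.6, 266 between 0.6 and 0.8, 259 between 0.8 and 1, and only 6 were at 0.4 or less.

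Before onset most of the genes were low in knockdown and control caps alike. The highest NF10 group mean was 64.0 CPM in control and 56.1 CPM in knockdown, so some were already expressed. The median level over the 87 genes was 0.635, 0.679 and 0.344 CPM in the 3 NF10 knockdown libraries, against 0.535, 0.609 and 0.351 CPM in the 3 NF10 controls. The ranges of the groups overlapped. The NF10 control mean of 50 genes was under 1 CPM, and 2 genes had no read in any NF10 control. Because the filter asks for reads in 12 libraries, a gene silent in all NF10 libraries could not enter. In all, 61 of the 87 had reads in all 16 libraries, 16 in 15 and 10 in 12 to 14. The choice did not use the NF10 knockdown mean, but it did use the NF10 control mean. The NF10 contrast is thus only partly independent of the choice. The NF10 log2 ratio of knockdown over control had a median of -0.02 over the 87 genes and -0.02 over all 11997. It ranged from -0.77 to 0.52 over the 87, with 39 genes higher and 48 lower. In edgeR's quasi-likelihood test with Benjamini-Hochberg adjustment, 0 of the 87 were called at NF10 (background 0% of all genes), 1 had an unadjusted p under 0.05 (background 0.475%), and DESeq2 called 0 (background 0.00837%). Knockdown and control libraries did not overlap in 1 gene, higher in knockdown (background 1.88%), and in none were all knockdown libraries lower (background 1.82%). With the replicate number as a block, which the pairing check allowed at NF10, edgeR again called 0 of the 87 and 0 of all genes. The lowest adjusted p among the 87 in that edgeR fit was 0.511. An unadjusted p under 0.05 was found there in 1 of the 87, against 1143 of all 11997 genes. The lack of calls does not show equal levels.

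At neurula the control caps expressed the genes and the knockdown caps expressed little of them. The median level over the genes was 4.27 and 4.42 CPM in the NF16 knockdown libraries, against 51.2 and 37.8 CPM in the NF16 controls. Fewer cells of a type and less RNA per cell cannot be told apart in such bulk samples. Every one of the 87 genes was lower in both knockdown libraries than in both controls (background 33.3%), and edgeR called 81 of them lower (background 12.9%), which follows from the choice. The log2 ratio had a median of -2.70 and ranged from -5.64 to -1.02. It was -2 or less in 63 genes and -3 or less in 34. The 87 genes together took 0.293% and 0.192% of assigned fragments in NF16 knockdown, against 1.37% and 1.16% in control.

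**Figure D1:**
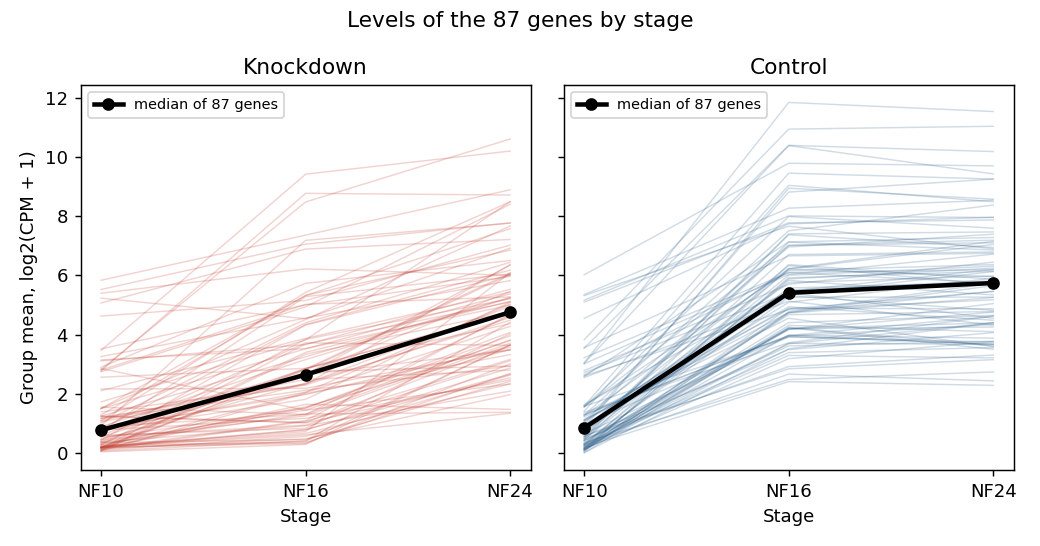
Group mean levels of the 87 genes as log2(CPM + 1) (vertical axis) at NF10, NF16 and NF24 (horizontal axis), knockdown on the left and control on the right; thin lines are genes and the black line is their median. The knockdown median climbs steadily and the control median has nearly reached its NF24 level at NF16.

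Knockdown caps did not lack the onset altogether. The share of the control NF10 to NF16 rise that had taken place in knockdown at NF16, on the log2(CPM + 1) scale, had a median of 33.8% over the 87 genes. It was 49.5% over the 633 other late genes and 89.7% over the 449 neurula-onset genes that were not low at NF16. The range over the 87 ran from -52.1%, a gene lower at NF16 than at NF10 in knockdown, to 87.6%. In 14 genes under 10% of the rise had occurred, and in 24 genes 50% or more. Within knockdown caps, edgeR called 42 of the 87 higher at NF16 than at NF10 (background 17.2%) and 0 lower (background 17.1%), and DESeq2 called 50 higher (background 21.1%) and 1 lower (background 20.6%). Without NF16 knockdown replicate 1 or 2, 1 library was left in that group. The median log2 change over the 87 in edgeR was then 2.33 or 2.42, against 2.42 with both. For comparison, 412 of the 633 other late genes and 419 of the 449 others were called higher.

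The genes that had barely risen at neurula were those at lower level in controls. The 14 genes below 10% had a median NF16 level of 0.708 CPM in knockdown and 14.7 CPM in control. The 24 genes at 50% or more had medians of 25.8 CPM in knockdown and 126 CPM in control. A value of 1 added to low levels also shrinks the share, and its part was not tested. At NF24 these 2 ends of the range had median knockdown over control ratios of 0.546 and 0.557, within a choice that allowed no ratio over 0.6. The following folds have 1 added to both means. The knockdown level at NF24 exceeded that at NF16 by a median of 5.96-fold in the 14 genes and 4.22-fold in the 21 between 10% and 25%. It did so by 3.93-fold in the 28 between 25% and 50% and 2.15-fold in the 24. The NF16 knockdown level enters both the share and this fold, and the choice limited the NF24 ratio and the control change. The falling order thus follows in part from how these values are computed and is only a description.

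**Figure D2:**
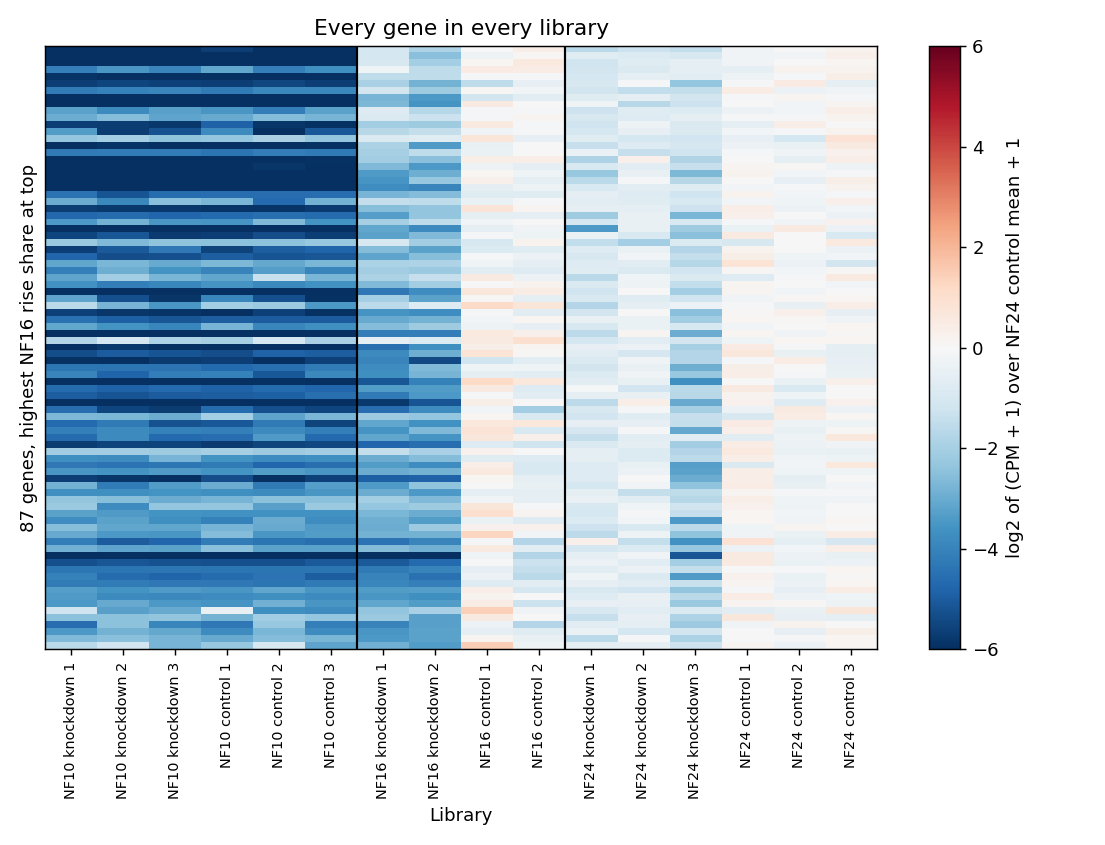
Each row is 1 of the 87 genes, ordered with the highest share of the control rise reached in NF16 knockdown at the top, and each column a library. Colour gives the log2 of CPM + 1 over the NF24 control mean + 1, limited to 6 either way. Values in the NF16 knockdown columns are lower than in the NF16 control columns in every row. Among the NF24 knockdown columns replicate 3 is the lowest in 65 rows.

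The next values compare tailbud with neurula within each arm, between separate libraries, and no cap was followed over time. The choice asked for a low knockdown level at NF16 and a small control change from NF16 to NF24, which favours a gain in knockdown and fixes the small change in control, so these values are a description and the backgrounds beside them come from unselected genes. The median level over the 87 genes was 27.6, 36.6 and 13.1 CPM in the NF24 knockdown libraries, against 57.0, 42.2 and 42.2 CPM in the NF24 controls. All 3 knockdown medians lay below all 3 control medians. The mean knockdown level was higher at NF24 than at NF16 in 83 genes (background 53.1%). With 1 added to both means, the gain was 2-fold or more in 68 genes and 4-fold or more in 40. EdgeR called 49 of the 87 higher at NF24 than at NF16 within knockdown caps (background 14.9%) and 0 lower (background 13.6%). Without NF16 knockdown replicate 1 or 2, 1 library was left in that group. The median log2 change over the 87 in edgeR was then 2.301 or 2.397, against 2.106 with both. The log2 change of the group means, with 1 added, was 1.87 at the median. It was 1.65 in the other late genes and 0.24 in the genes that were not low at NF16. In controls the NF24 mean was above the NF16 mean in 53 genes and below it in 34. The NF24 knockdown mean was below the NF16 control mean in 82 of the 87 genes (background 48.3%), with a median log2 ratio of -0.83. The limits on NF24 knockdown and on the control change nearly force this count.

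The mean hid a spread between the knockdown libraries that was wider than in controls. Relative to the NF24 control mean, the median ratio of the 87 genes was 0.533, 0.679 and 0.329 in NF24 knockdown replicates 1, 2 and 3, against 1.06, 0.884 and 1.03 in the controls. Replicate 3 was the lowest of the knockdown libraries in 65 genes, replicate 1 in 18 and replicate 2 in 4. Over all 11997 genes replicate 3 was lowest in 36.2%, and over the other late genes in 63.0%. The SD between knockdown libraries on the log2 scale had a median of 0.64 over the 87 genes, against 0.38 between controls. For the other late genes these SDs were 0.43 and 0.30, and for all genes 0.37 and 0.26. A ratio of at most 0.6 was met by 58 genes in replicate 1 (background 7.29%), 25 in replicate 2 (background 4.15%) and 81 in replicate 3 (background 15.5%). In 43 genes replicates 1 and 3 met it and replicate 2 did not, in 15 replicate 3 alone met it, and in 9 all 3 libraries met it. In 20 genes replicate 2 reached 0.8 of control or more while replicate 3 stayed at 0.4 or less.

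**Figure D3:**
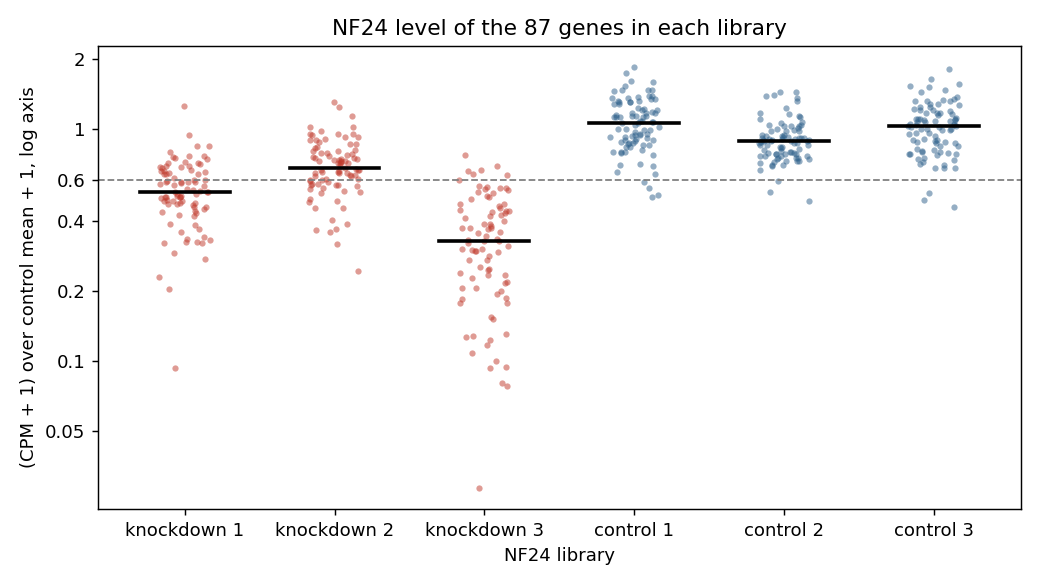
Ratio of CPM + 1 to the NF24 control mean + 1 (log axis) of the 87 genes in each NF24 library, knockdown in red and control in blue; black bars are medians and the dashed line is the limit of 0.6. The red medians are 0.533, 0.679 and 0.329 and the blue medians 1.06, 0.884 and 1.03.

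The NF24 libraries also differed in quality measures. Among the knockdown libraries the outside-gene share was highest in replicate 3, where the median ratio was lowest, and the unmapped share was highest in replicate 1. Among the controls the outside-gene share was also highest in replicate 3, where the median ratio was 1.03, between those of the other controls. Unmapped fragments made up 51.2%, 31.3% and 40.5% in knockdown replicates 1, 2 and 3, against 23.99%, 31.4% and 34.0% in the controls. The share of mapped fragments that fell outside genes was 50.5%, 42.7% and 53.0% in knockdown, against 38.6%, 41.9% and 45.8% in control. Replicates 1 and 3 were above every control in both, and replicate 2 lay within the control range. Assigned fragments numbered 10692685 to 16488846 in NF24 knockdown and 18054098 to 20715259 in NF24 control. Across the 16 libraries they ran from 10692685 to 40286023. The part of these measures in the low levels was not tested. Of the 87 genes, 77 were below the lowest NF24 control in replicate 1 (background 29%), 58 in replicate 2 (background 24.7%) and 85 in replicate 3 (background 35.9%). In all, 50 of the 87 genes did not overlap between the groups at NF24 (background 7.26%). The choice used these libraries, and nothing further is read from those counts.

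Tests of single genes at NF24 use the libraries that chose the genes, so their counts describe the 87 and support nothing beyond the choice. EdgeR called 0 of the 87 genes and 0% of all genes at NF24, with the lowest adjusted p among the 87 at 0.264. An unadjusted p under 0.05 was found in 47 of the 87 (background 10.2%). DESeq2 called 10 of the 87 lower (background 0.359%). With the replicate number as a block, which the pairing check allowed at NF24, edgeR again called 0 of the 87 (background 0.0333%). The lowest adjusted p among the 87 in that edgeR fit was 0.054. An unadjusted p under 0.05 was found there in 76 of the 87, against 2217 of all 11997 genes.

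Each NF24 knockdown library was then set aside in turn, the genes were chosen anew from the other libraries, and the levels in the library set aside were read. Without replicate 3 the choice gave 40 genes, 34 of them among the 87. In replicate 3 their median ratio was 0.485 and 80% were below the lowest control, against 0.617 and 74.0% for the other late genes. Without replicate 1 it gave 115 genes, 66 of them among the 87. The median ratio of the 115 in replicate 1 was 0.701 and 63.5% were below the lowest control, against 0.829 and 48.3%. Without replicate 2 it gave 201 genes, 81 of them among the 87. The median ratio of the 201 in replicate 2 was 0.893 and 36.8% were below the lowest control, against 0.912 and 32.6%. Over all genes 35.9%, 29% and 24.7% were below the lowest control in replicates 3, 1 and 2. The median ratio of the chosen genes was below that of the other late genes in replicates 3 and 1 and near it in replicate 2. Replicates 3 and 1 were also the libraries above every NF24 control in the unmapped and outside-gene shares. The part of these measures in the ratios was not tested. The NF24 controls were the same in the choice and in the reading, so a control mean that is high by chance lowers the ratio in the library set aside as well. In a further reading, added after the data had been seen, the same-numbered control was set aside too and the knockdown library was divided by it. Without pair 3 the choice gave 26 genes with a median ratio of 0.403 in that pair, against 0.631 for the other late genes and 1 for all genes. Without pair 1 it gave 94 genes with a median ratio of 0.628, against 0.775 and 0.991. Without pair 2 it gave 235 genes with a median ratio of 0.978, against 1.03 and 1. Among the 87 were 24 of the 26 genes, 62 of the 94 and 84 of the 235. The knockdown library was lower than its control in 100%, 91.5% and 53.6% of the chosen genes for pairs 3, 1 and 2, against 88.9%, 79.2% and 45.5% of the other late genes and 49.9%, 50.9% and 49.9% of all genes. Each of these values rests on 1 knockdown library and carries no test.

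**Figure D4:**
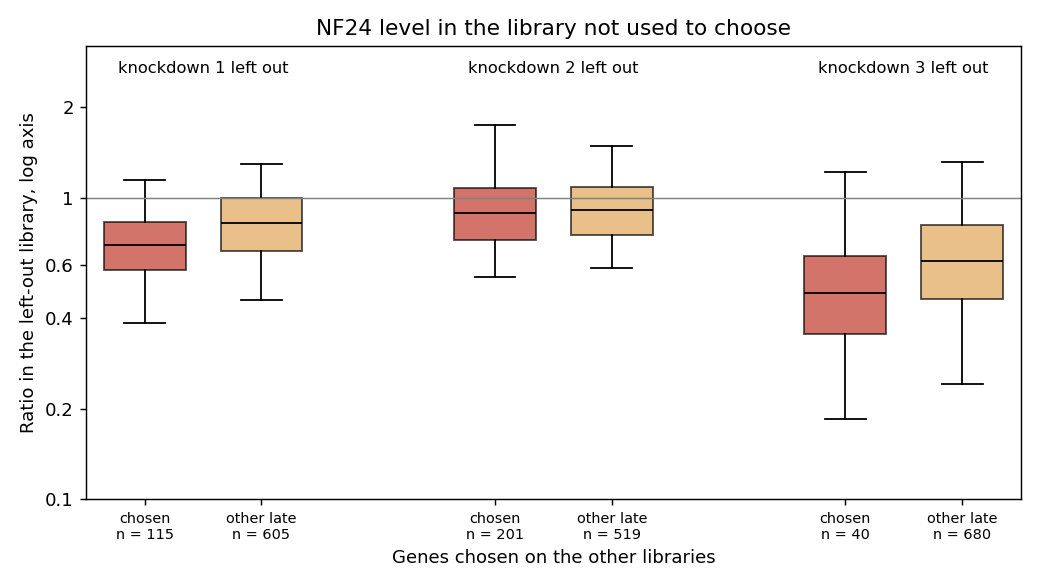
Ratio of CPM + 1 to the NF24 control mean + 1 (log axis) in an NF24 knockdown library that was not used to choose the genes, for the chosen genes (red) and the other late genes (orange). Boxes span the quartiles with the median, and whiskers run from percentile 5 to percentile 95; the medians are 0.701 and 0.829, 0.893 and 0.912, and 0.485 and 0.617 for replicates 1, 2 and 3.

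The size of the neurula reduction and that of the tailbud reduction showed almost no correlation within the 87 genes. Across these genes the Pearson correlation of the NF16 and NF24 log2 ratios was -0.07 and Spearman's rho -0.03 (n = 87). The choice had limited the NF16 values to -1 or less and had narrowed the range of NF24 values, which itself bears on these correlations. Over all 720 late genes the values were 0.33 and 0.34, and over the 1169 neurula-onset genes 0.57 and 0.58. Genes are not independent replicates and share libraries, so no p is given. The reduction was larger at NF16 than at NF24 in 86 of the 87 genes. As an interaction term in edgeR, the NF24 effect was above the NF16 effect in 10 of the 87 genes (background 1.26%) and below it in 0 (background 0.592%). With the replicate number as a block the count was 38 (background 9.34%), but same-numbered libraries deviated oppositely at NF16 (r = -0.19), so the block does not rest on a shown pairing there. Without the block, the count was 0 when NF24 control replicate 2 was left out, where 18 of all genes were called higher. It was 2 without NF24 control replicate 1 (52 of all genes) and 4 without replicate 3 (100). Without NF24 knockdown replicate 1 or 2 it was 4 (76 and 70), and without replicate 3 it was 18 (253). Without 1 NF16 library, which left 1 in its group, the median log2 difference over the 87 was 1.895 to 2.272, against 2.143 with all. Of the other late genes, 82 of 633 had an effect that was higher at NF24.

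**Figure D5:**
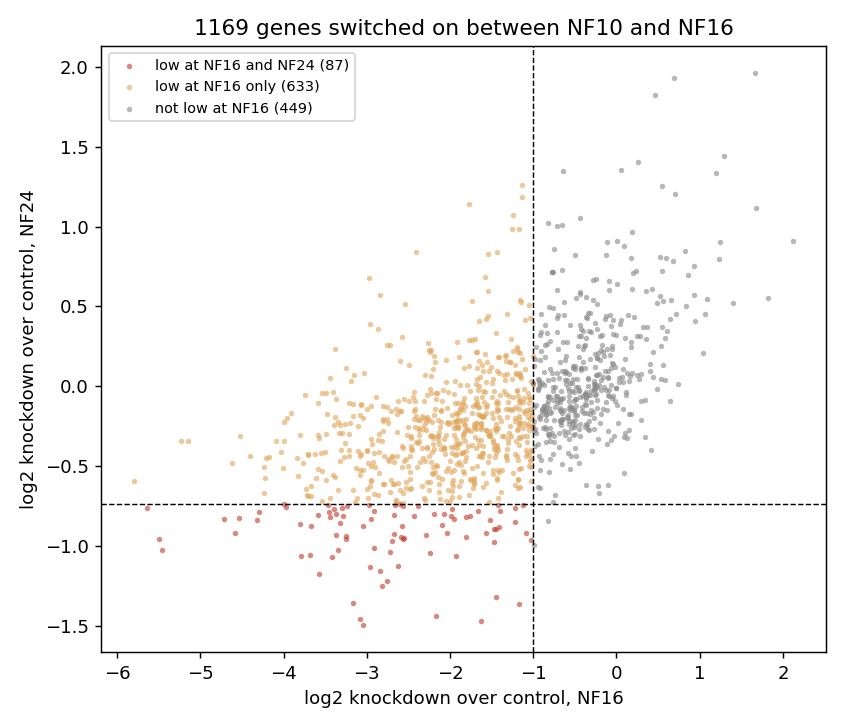
Log2 ratio of knockdown over control at NF16 (horizontal axis) and NF24 (vertical axis) for the 1169 neurula-onset genes; dashed lines are the limits of the choice, red points are the 87 genes, orange points the 633 other late genes and grey points the 449 genes that were not low at NF16. The red points form the lower edge of a continuous cloud.

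Genes with the same mean reduction at NF24 behaved differently along the stages. Xetrov90023975m.g and Xetrov90015693m.g, which have no symbol in the table used here, had the lowest NF24 ratios of mean CPM among the 49 genes with at least 5 CPM in NF24 controls and no overlap at NF16 or NF24. Both stages were part of the choice, so a test is given only for the NF10 values, of which the choice used the control mean. Xetrov90023975m.g had levels of 6.15, 5.22 and 1.64 CPM in NF24 knockdown (mean 4.34 ± 2.38, SD, n = 3), against 11.98, 8.72 and 17.3 CPM in control (12.7 ± 4.34). At NF16 it had 0.320 and 0.402 CPM in knockdown, from 6 and 5 reads, against 16.7 and 5.71 CPM in control. At NF10 it had 0.374, 0.146 and 0.287 CPM in knockdown, against 0.201, 0.566 and 0.223 CPM in control (edgeR adjusted p = 0.9999). Its NF16 knockdown level thus lay within the range of its NF10 levels, and all 3 NF24 knockdown libraries were higher than both NF16 ones.

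Xetrov90015693m.g had risen in part at neurula. It had 5.21, 18.7 and 3.103 CPM in NF24 knockdown (mean 8.999 ± 8.45, SD, n = 3), against 32.0, 26.2 and 20.1 CPM in control (26.1 ± 5.92). At NF16 it had 1.76 and 4.26 CPM in knockdown, against 17.2 and 16.8 CPM in control. At NF10 it had 0.0374, 0.0971 and 0 CPM in knockdown, from 1, 2 and 0 reads, against 0.0669, 0.174 and 0.0956 CPM in control (edgeR adjusted p = 0.9999). Replicate 2 was the highest of the NF24 knockdown libraries for this gene, as for 60 of the 87.

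Other patterns are given for genes picked after their values were seen, without identifiers. The most abundant of the 87 had 2524, 952 and 1226 CPM in NF24 knockdown, against 2954, 2705 and 3311 CPM in control, so that replicate 2 was here the lowest. The NF16 levels of that gene were 468 and 247 CPM in knockdown, against 4338 and 3057 CPM in control. The gene with the largest NF16 reduction had 10.1 and 16.1 CPM in NF16 knockdown, against 791 and 616 CPM in control. At NF24 the same gene had 208, 800 and 74.5 CPM in knockdown, against 735, 363 and 739 CPM in control, and the groups overlapped. Another gene gained 41.6-fold from NF16 to NF24 in knockdown, as the ratio of the group means with 1 added to each. It had 86.0, 113 and 2.74 CPM in NF24 knockdown, against 193, 103 and 97.6 CPM in control. In NF16 knockdown that gene had 0.320 and 0.964 CPM, against 109 and 37.8 CPM in control, and NF24 replicate 3 lay nearest to this level.

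Some genes were reduced in all 3 NF24 knockdown libraries, though not all of them evenly. Of the 9 that met the limit in each library, a gene had ratios of 0.523, 0.455 and 0.193 in replicates 1, 2 and 3. The most abundant of these 9 had 1257, 1206 and 1081 CPM in NF24 knockdown, against 1850, 1879 and 2616 CPM in control. Its NF16 levels were 1004 and 369 CPM in knockdown, against 1708 and 2247 CPM in control. In 4 of the 87 genes the knockdown mean was no higher at NF24 than at NF16. The most abundant of these 4 had 374, 473 and 414 CPM in NF24 knockdown, against 995, 1146 and 1362 CPM in control. At NF16 it had 555 and 321 CPM in knockdown, against 1139 and 1564 CPM in control. The knockdown libraries of both stages lay below every control library of both stages.

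The fragments of the 87 genes lay mostly on the annotated strand, with a median opposite-strand share of 0.529% over the genes. In 5 genes the share exceeded 10%, up to 79.7%. The median NF24 log2 ratio was -0.87 with and -0.87 without those 5 genes. Of the 87 genes, 4 had identifiers that followed each other directly.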

How the data were processed

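The deposited values were raw counts of fragments per gene, which the authors made with STAR (version 2.4.2a per the submitters' processing notes, a different release in the study's methods) from paired reads of ribosomal RNA-depleted, strand-directional libraries, over Xenbase gene models of X. tropicalis genome version 9. Multimapping fragments were not counted. The strand column with the larger total (column 4) was used. Replicates were taken as biological, as the study states. The study gives 3 biological replicates for its stages, and the NF16 groups here hold 2 libraries each. The labels do not tie numbers to batches, and p-values set group differences against the spread between these samples.

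Genes with at least 1 read in 12 of 16 libraries (75%) were kept. CPM used TMM factors of edgeR 4.0.16 in R 4.3.3. The quasi-likelihood test of edgeR was run on the libraries of each pair of groups, and on all 16 for the interaction, with Benjamini-Hochberg adjustment over all genes tested and a threshold of 0.05. The code was tested on simulated data. No 2 libraries of a group agreed within sampling noise. The members, lists and rules were chosen with earlier results of these data known. The 2 identifiers printed had the lowest NF24 ratio of mean CPM among the genes with at least 5 CPM in NF24 controls and no overlap at NF16 and NF24. Same-numbered libraries deviated together at NF10 (r = 0.861, 0.906 and 0.710) and NF24 (0.452, 0.294 and 0.602), which was taken as pairing, but not at NF16 (-0.19). Replicate numbers come from the sample titles, and the numbers in the deposited NF16 and NF24 file names differ from them in part. The alternatives tried were the unstranded column, no filter, scaling by RLE or by totals, DESeq2 1.42.0, other added values and limits, a replicate block, all groups in 1 fit, and leaving out each library. Sequences were not used here, since no identifier matched a reference table.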

Additional observations from a re-analysis of the deposited data

Results flagged for a closer look

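The knockdown effect differed between stages in 10 of the 87 genes by the interaction term in edgeR with adjusted p under 0.05 (background 1.26% higher). In these genes the NF24 effect was above the NF16 effect by 3.02 to 5.49 on the log2 scale. The genes had been chosen on both effects.

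The share of the fragments of the 87 genes on the opposite strand was above every control of the same stage in 6 knockdown libraries. It was 5.90% in NF10 knockdown replicate 2, against 3.69% to 5.495% in NF10 control. It was 2.65% and 3.59% in NF16 knockdown replicates 1 and 2, against 0.252% and 0.448% in control. It was 1.73%, 0.710% and 2.76% in NF24 knockdown replicates 1, 2 and 3, against 0.386%, 0.681% and 0.438% in control. The share is relative to the sense fragments, which were fewer in knockdown at NF16 and NF24. Without the 5 genes above 10%, it was 1.01% and 0.672% in NF16 knockdown, against 0.122% and 0.130% in control, and 0.927%, 0.340% and 1.43% in NF24 knockdown, against 0.180%, 0.409% and 0.216% in control.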

How the results depend on the processing

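The number of genes chosen was 46 with 5 added before the log, 22 with an NF24 limit of 0.5, 197 with a limit of 0.7, and between 40 (without NF24 knockdown replicate 3) and 201 (without NF24 knockdown replicate 2) when each library was left out. The genes themselves also changed. Without NF24 control replicate 3 the choice gave 87 genes, of which 55 were among the original 87. Without NF24 control replicate 1 it gave 77 genes, with 58 of the original 87. Of the 40 genes 34 were among the original 87, and of the 201 genes 81 were. The number chosen was 99, including all 87, when the limit was applied without the added 1, an alternative chosen after seeing the data. With the 87 held fixed, the count called at NF24 was 10 by DESeq2. Leaving out libraries gave 23 to 44 called between NF10 and NF16 in knockdown, 6 to 60 between NF16 and NF24 in knockdown, and 0 to 18 for the interaction, which was 34 by DESeq2. The lowest counts between stages in knockdown came from fits that left 1 NF16 knockdown library, where calls over all genes also fell. For the interaction, DESeq2 called 691 of 11955 genes higher, against 151 of 11997 in edgeR. The cause of these shifts was not tested. The replicate block gave 38 for the interaction and moved no other count of adjusted calls by more than 1.5 times. Members with an unadjusted p under 0.05 at NF24 were 76 with it and 47 without, against 2217 and 1227 of all 11997 genes. At NF16, where same-numbered libraries deviated oppositely, a crossed pairing chosen after seeing the data gave 86 called, against 81 with the replicate block. Over all genes 2089 and 1323 were called lower. The median NF24 log2 ratio was -0.87, and -1.11 to -0.67 when each NF24 library was left out; that at NF10 was -0.02, and -0.04 to 0.03. Of 125 alternatives over 9 results, 103 stayed within 1.5 times or the spread between libraries, 23 of them at a count of 0. For the NF24 median that spread was 0.53 log2 units, a wide band. A change of direction was not scored. Low NF10 counts and 2 libraries a group at NF16 limit the precision.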
